A study of Mus musculus with 4 samples.

Results

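The 10 genes described here mark or regulate the stem cell zone at the base of the intestinal crypt: Lgr5, Ascl2, Smoc2, Axin2, Rnf43, Znrf3, Ephb2, Sox9, Lrig1 and Prom1. They were taken by name, and every gene probe of the array whose accession maps to one of them was used, which gave 15 probes on 24 spots per array out of 41174 distinct gene probes. All 15 probes of all 10 genes passed the filter on dim probes, so the genes are 10 of the 20825 genes and transcripts tested. The tissue was the mucosa of the colon of C57BL/6 mice, and animals aged 90 days (P90, young adult) were compared with animals aged 30 days (P30, juvenile) on 4 two-colour arrays, which the labels letter as a, b, e and k, each holding 0.4 µg of RNA of each age. Array e is the dye swap, with P90 RNA in Cy5; on the others it was in Cy3. The sex of the mice and any pooling are not given in the sources used here. The mucosa was scraped off whole, so each RNA mixes epithelium with the tissue beneath it, and in such bulk samples fewer cells of a type and less RNA per cell cannot be told apart.

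Wnt proteins bind frizzled and Lrp receptors on crypt base cells, which spares beta-catenin from destruction and lets it activate genes together with TCF factors. R-spondins, secreted by cells around the crypt, bind the Lgr receptors and take the ubiquitin ligases Rnf43 and Znrf3 off the cell surface, and with them a brake on the frizzled receptors. In the colon this signal is strongest at the crypt base, where Lgr5 marks the dividing stem cells, and it fades toward the surface, where the cells differentiate.

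Lgr5 was lower at P90 than at P30 on all 4 arrays, at 53.6% of its P30 level on average, and with the arrays read as labelled it was the only one of the 10 genes with 1 direction throughout. By mean, 7 of the 10 were below 0, as were 54.4% of all genes. Sox9 and Prom1 had the next lowest means, but both were higher at P90 on array b. The remaining 7 genes had mean log2 P90/P30 values between -0.26 and 0.27. No gene passed limma's moderated test at a Benjamini-Hochberg adjusted p below 0.05, neither among the 10 nor among all 20825 (0%). At an unadjusted limma p below 0.05, Lgr5 was the 1 member that passed, against 1645 of all genes (7.9%), of which 1106 were lower at P90 (5.31%) and 539 higher (2.59%). These counts moved with single arrays. The count over all genes was 682 without array a, 4654 without b, 971 without e and 999 without k, and without b Znrf3, Sox9 and Prom1 passed beside Lgr5. Of all genes, 7.98% were below 0 on all 4 arrays and 6.15% above 0 on all 4.

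Array b ran against the other arrays, and with its sign turned different members had an unadjusted limma p below 0.05. Lgr5 then missed the unadjusted limma threshold of 0.05. Axin2 (mean -0.28), Znrf3 (-0.59), Sox9 (-0.66) and Prom1 (-0.77) passed it and were below 0 on all 4 arrays, as were 19.1% of all genes. That made 4 of 10 members, beside 4973 of all genes (23.9%). None of the 10 passed the adjusted limma test in that reading either, the lowest adjusted p being 0.101 for Prom1.

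**Figure D1:**
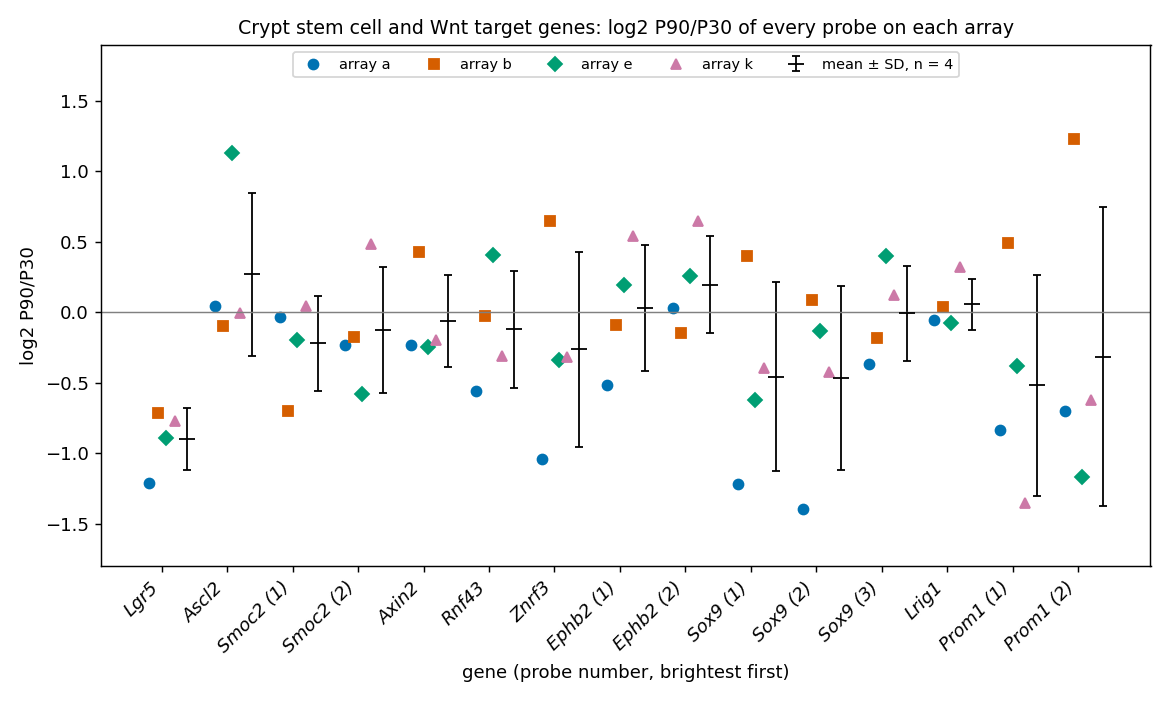
The log2 ratio of P90 over P30 (vertical axis) of every probe of the 10 genes (horizontal axis) is shown on arrays a, b, e and k, with the mean and SD of the 4 arrays beside it; a value of 0 means equal signal at both ages. Lgr5 lies between -1.21 and -0.72 on every array, while the 4 points of each other gene fall on both sides of 0.

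Between 55.6% and 71.0% of gene spots were well above background in each of the 8 channels. The share at P90 and at P30 was 55.6% and 71.0% on array a and 57.3% and 69.6% on k. It was 69.3% and 66.6% on b and 65.4% and 64.6% on e. The P90 channel was thus the weaker on a and k, and the part of this in the ratios was not tested. Across genes, which are not independent replicates, array b correlated negatively with arrays a (Pearson r = -0.31), e (r = -0.27) and k (r = -0.19), and over all probes r with array a was -0.303. The labels name the dye of each RNA on array b, so its labelled direction was kept; both readings are given for the members whose call differs, the pooled Wnt pathway lists and the cell cycle list, and the plot of processings holds all 10 members. Epithelial identity was checked on 12 genes listed for it, all of which were well above background in both channels on all 4 arrays. The keratin genes Krt8 and Krt18 were saturated in both channels throughout and give no ratio. Marker genes of other tissues had ratios far from 0 on single arrays. The median log2 P90/P30 of 13 fibroblast and matrix genes was -3.05 (a), 1.37 (b), -1.19 (e) and -2.68 (k). Their brightest genes, the collagens Col3a1 and Col1a2, were at -2.45 ± 2.73 and -2.11 ± 2.53 (SD, n = 4). A further Col3a1 probe did not share the wide spread and was at -0.18 ± 0.14. The median of 7 adipocyte genes was 0.056 (a), 2.35 (b), 5.46 (e) and 0.57 (k), with the brightest, Fabp4 (saturated at P90 on 1 array) and Cidec, at 1.30 ± 2.53 and 0.77 ± 1.74. The list medians were 0.022 for smooth muscle (Acta2 -0.0031 ± 0.69, Tagln 0.16 ± 0.95), 0.053 for immune cells (Jchain 0.49 ± 2.35, Cd14 0.19 ± 0.62) and 0.11 for enteric neurons and glia (Tubb3 -0.0021 ± 1.07, S100b 0.22 ± 0.52). No gene of these lists passed the adjusted limma test.

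Lgr5 is the R-spondin receptor that defines the dividing stem cell of the crypt base. Its normalised log2 signal, which includes an offset of 50 on the linear scale, went from 8.35 at P30 to 7.13 at P90 on array a. It was 9.49 at P30 and 8.78 at P90 on array b, 9.03 and 8.14 on array e, and 8.47 and 7.70 on array k. The P90 signal was thus the lower of the pair on every array, including the dye swap and array b. The log2 P90/P30 was -1.21 (a), -0.72 (b), -0.89 (e) and -0.77 (k), with a mean of -0.90 ± 0.22 (SD, n = 4) and a 95% confidence interval from the limma fit of -1.24 to -0.55. By limma the unadjusted p was 0.000789, rank 18 of 20825 genes, and the adjusted p was 0.617. The mean of 1.55% of all genes was lower still. The spot was well above background in both channels on all arrays, but on array a its P90 brightness of 84 was close to the local background of that dye, whose median over all spots was 42.

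With array b turned, the Lgr5 mean was -0.54 and its unadjusted limma p was 0.150. With array e read against its labelled dyes it was -0.45 (unadjusted p = 0.264). In each of the other 18 alternative processings the unadjusted p was below 0.05, and in all 20 the mean was below 0, from -1.32 with the authors' own log ratios to the -0.45 above. The adjusted p ran from 0.0819 without array b to 0.99987 and never passed.

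The homologs of Lgr5 were read from the list of Wnt receptors after the values had been seen. Lgr4, which binds the same ligands throughout the crypt, had log2 P90/P30 values of -0.88 (a), 0.87 (b), -1.10 (e) and -1.32 (k), a mean of -0.61 ± 1.004 (SD, n = 4; limma adjusted p = 0.697). Lgr6 was dim, with 3 arrays well above background at P90 and 2 at P30, at 0.15 ± 0.16. Of the 3 homologs, each read by its brightest probe, Lgr5 was the 1 with the same sign on all arrays. Lgr4 had 3 probes past the filter, of which the brightest alone is given.

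**Figure D2:**
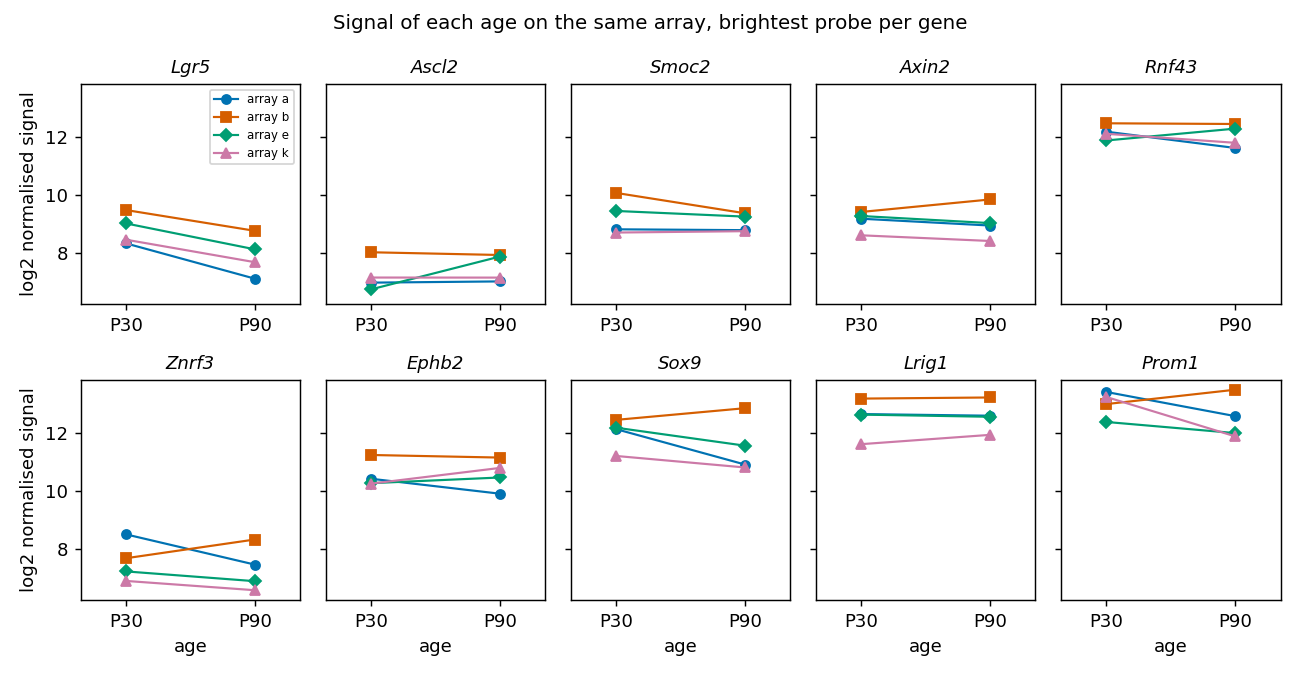
Each line joins the normalised log2 signal (vertical axis) of the P30 and the P90 RNA on 1 array, for the brightest probe of each gene. All 4 lines fall for Lgr5, while for Axin2, Znrf3, Sox9 and Prom1 the line of array b rises and the lines of a, e and k fall; heights of different genes reflect different probes and are not comparable.

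Ascl2 is the Wnt-driven transcription factor that sets the stem cell state together with beta-catenin and TCF. Its log2 signals were 6.99 at P30 and 7.04 at P90 on array a, 8.04 and 7.94 on b, 6.76 and 7.89 on e, and 7.17 at both ages on k. Only the dye swap showed a difference above 0.1, and the log2 P90/P30 was 0.042 (a), -0.094 (b), 1.13 (e) and -0.0023 (k). The mean was 0.27 ± 0.58 (SD, n = 4), with an interval of -0.32 to 0.86 and a limma adjusted p of 0.804. Without array e the mean was -0.018, and with a dye term it was 0.56. Array e is the only dye swap, so a dye effect and a difference in its RNA pair cannot be told apart. Array e is also the array with the largest P90 excess of adipocyte genes; their summed normalised signal, over all 7 measured, ranged from 5579 to 206825 at P90 and from 4851 to 11218 at P30, with all 7 well above background on every array. Their part in the Ascl2 value was not tested.

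Sox9 is the transcription factor of progenitor and stem cells in the lower crypt, and a Wnt target. Its brightest probe read 12.14 at P30 and 10.92 at P90 on array a, 12.45 and 12.86 on b, 12.19 and 11.57 on e, and 11.21 and 10.82 on k. P90 was the lower of the pair on 3 arrays and the higher on b, with log2 P90/P30 values of -1.22 (a), 0.40 (b), -0.62 (e) and -0.40 (k). The mean was -0.46 ± 0.67 (SD, n = 4; interval -1.12 to 0.20; limma adjusted p = 0.673), and without array b it was -0.74. A second probe, printed as 10 spots per array, gave the same signs, with -1.40 (a), 0.088 (b), -0.13 (e) and -0.42 (k). The SD of its replicate spots within an array was 0.041 to 0.072 (9 spots on array a after outliers), and the SD between its 4 array means was 0.65; repeat spots share 1 RNA pair, so the first covers technical error alone. The remaining probe was dim and had a mean of -0.0070 ± 0.34. The means of the 3 probes spanned 0.46 on the log2 scale, where the median span over the 4633 genes with a symbol and more than 1 probe was 0.18. Those genes were not matched for their number of probes, and a span tends to grow with that number.

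Smoc2, a secreted matricellular protein made by Lgr5-positive cells, had log2 P90/P30 values of -0.030 (a), -0.70 (b), -0.19 (e) and 0.047 (k) at its brighter probe. The difference lay on array b, where the log2 signal was 10.08 at P30 and 9.38 at P90. The mean was -0.22 ± 0.34 (SD, n = 4; interval -0.63 to 0.19; limma adjusted p = 0.755), and -0.059 without array b. The second probe gave -0.13 ± 0.45, from -0.58 on e to 0.48 on k. Smoc2, like Lgr5, was below 0 on array b, but the other 3 arrays did not put it below 0 together.

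Axin2, Rnf43 and Znrf3 are the pathway's own brakes: Axin2 is a scaffold of the complex that destroys beta-catenin, and Rnf43 and Znrf3 mark frizzled receptors for breakdown. Each of them is switched on by the signal it limits. Axin2, the most widely used readout of Wnt activity, had log2 signals of 9.19 at P30 and 8.96 at P90 on array a, 9.42 and 9.85 on b, 9.29 and 9.04 on e, and 8.62 and 8.43 on k. Its log2 P90/P30 was -0.23 (a), 0.43 (b), -0.24 (e) and -0.20 (k), a mean of -0.061 ± 0.33 (SD, n = 4). The interval of -0.47 to 0.35 leaves room for differences of either sign, and the limma adjusted p was 0.957. Without array b the mean was -0.22.

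Rnf43 was bright, with log2 signals from 11.62 to 12.47, and its log2 P90/P30 was -0.56 (a), -0.024 (b), 0.41 (e) and -0.31 (k). The mean of -0.12 ± 0.42 (SD, n = 4; interval -0.59 to 0.34; adjusted p = 0.912 by limma) was 0.025 without array a and 0.055 with a dye term, so its sign is not settled. Znrf3 was dim, with log2 signals between 6.60 and 8.52, and read -1.04 (a), 0.645 (b), -0.34 (e) and -0.32 (k). Its mean was -0.26 ± 0.69 (SD, n = 4; interval -0.94 to 0.42; adjusted p = 0.844 by limma). It moved to -0.57 without array b and to -0.0036 without array a. Of the brakes, Rnf43 alone was higher at P90 on the dye swap.

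Ephb2, a receptor tyrosine kinase that keeps cells in place along the crypt by repulsion from ephrin-B ligands, had log2 P90/P30 values of -0.51 (a), -0.089 (b), 0.20 (e) and 0.54 (k). The mean was 0.033 ± 0.45 (SD, n = 4; interval -0.46 to 0.52; limma adjusted p = 0.986). Its second, dimmer probe read 0.030 (a), -0.15 (b), 0.26 (e) and 0.65 (k), a mean of 0.20 ± 0.34. Both probes were highest on k and positive on e, and the arrays fell on both sides of 0. Ephb3, its partner in cell positioning, was looked up after the values had been seen and read 0.27 ± 0.36.

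Lrig1, an inhibitor of ErbB receptors that marks stem cells and is itself a brake on their growth, varied least of the 10 genes. Its log2 signals were 12.65 at P30 and 12.60 at P90 on array a, 13.19 and 13.22 on b, 12.64 and 12.56 on e, and 11.62 and 11.94 on k. The pairs differed by less than 0.1 on 3 arrays and by 0.32 on k. The mean log2 P90/P30 was 0.057 ± 0.18 (SD, n = 4), the interval -0.27 to 0.38 and the limma adjusted p 0.947. An SD below that of Lrig1 was found for 18.9% of all genes, and below that of Lgr5 for 26.7%.

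Prom1, the membrane protein prominin (CD133) found on stem cells and, more widely, on other epithelial cells, read 13.41 at P30 and 12.58 at P90 on array a. It was 12.998 and 13.49 on b, 12.38 and 12.00 on e, and 13.24 and 11.89 on k. The log2 P90/P30 of -0.83 (a), 0.49 (b), -0.38 (e) and -1.36 (k) gave a mean of -0.52 ± 0.78 (SD, n = 4; interval -1.28 to 0.24; limma adjusted p = 0.676). Without array b the mean was -0.86, and without array k it was -0.24. The second probe had the same sign on each array, with -0.70 (a), 1.23 (b), -1.17 (e) and -0.62 (k).

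Axin2, Znrf3, Sox9 and Prom1 were higher at P90 on b alone and lower on each remaining array. These signs were found for 4 of 10 members and for 19.1% of all genes tested. Genes of fibroblasts and matrix had them in 12 of 13 cases and endothelial genes in 7 of 8, among them the brightest, Plvap (-0.58 ± 1.43) and Ramp2 (-0.63 ± 1.40). The summed normalised signal of the 13 fibroblast and matrix genes ranged from 3526 to 50063 at P90 and from 18608 to 125430 at P30, and 10 of the 13 were well above background in both channels on every array. The part of this tissue in the values of the 4 genes was not tested. Lgr5 had the matrix genes' sign on a, e and k and the opposite sign on b.

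The 10 genes had a median log2 P90/P30 of -0.17, beside -0.020 for all genes tested. On array a 9 of the 10 were below 0, where 54.0% of all genes were, and their median was -0.54. On b 5 were below 0 (median 0.0072), on e 7 (median -0.22) and on k 7 (median -0.25). The share of all genes below 0 was 51.8% (b), 50.5% (e) and 53.7% (k). With median centring in place of loess, the median of all genes moved to -0.21 and that of the members to -0.49, or -0.28 relative to all genes against -0.15 in the values above. Array a holds most of the downward shift, as the median of the members without it was -0.0034.

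**Figure D3:**
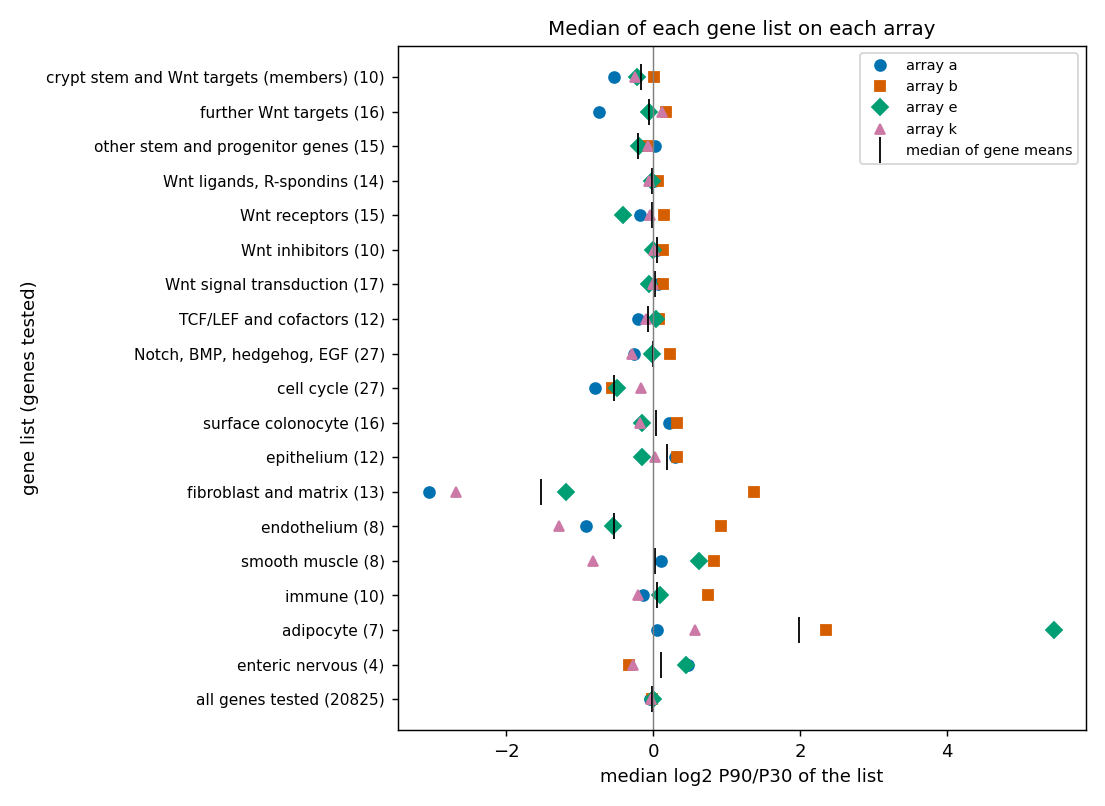
The median log2 P90/P30 of each gene list (horizontal axis) is shown for each of the 4 arrays, with a bar at the median of the genes' means and the number of genes tested in brackets. The members lie between -0.54 (a) and 0.0072 (b), the further Wnt targets reach -0.74 on a and the Wnt receptors -0.40 on e, the cell cycle list lies below 0 on all arrays (-0.79 to -0.16), and the fibroblast and adipocyte lists spread widely between arrays; the colonocyte and epithelium medians include genes saturated in the P30 channel on all arrays (7 of 16 and 5 of 12).

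Other genes of the pathway were read from 5 lists of Wnt ligands and R-spondins, receptors, inhibitors, signal transduction and TCF/LEF factors, of which 68 of 85 genes were tested. None passed the adjusted test in either direction. At an unadjusted limma p below 0.05, 5 were higher and 1 lower at P90, or 8.82%, which is near the 7.9% of all genes. The median of the 68 genes was 0.022. Of these 68 genes, 16 had the same sign on all 4 arrays, 10 of them above 0 (23.5%, beside 14.1% of all genes). With array b turned, 7 were higher and 14 lower at an unadjusted p below 0.05 (30.9%, beside 23.9% of all genes), and the median was -0.035.

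Among the ligands and their processing genes 14 of 21 were tested, with a median of -0.012. R-spondin 2 and R-spondin 3 did not pass the filter on dim probes, nor did Wnt2b and Wnt3. The brightest of this list were Wls, the carrier that brings Wnt proteins to the cell surface, at -0.26 ± 0.74 (SD, n = 4), and Porcn, the enzyme that attaches their lipid, at 0.052 ± 0.40. Among 15 receptors, with a median of -0.013, Lrp5 was at 0.18 ± 0.43 and Ryk at -0.25 ± 0.31. Fzd8 (0.49 ± 0.29) and Fzd10 (0.73 ± 0.68), frizzled receptors picked because their unadjusted p was below 0.05, were above 0 on all 4 arrays. The 10 inhibitors had a median of 0.057, with Kremen2 at 0.32 ± 0.47 and Dkk3 at -0.35 ± 1.004.

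In the transduction list (17 genes, median 0.033) beta-catenin itself, Ctnnb1, was at 0.18 ± 0.36 (SD, n = 4) and the kinase Csnk1a1, which starts its destruction, at -0.76 ± 0.80. Further Csnk1a1 probes were nearer to 0, at -0.46 ± 0.61 and -0.39 ± 0.51. Axin1, the scaffold paralog that, unlike Axin2, is not switched on by the pathway, was picked for its small unadjusted p. It read 0.62 (a), 0.65 (b), 0.46 (e) and 0.82 (k), a mean of 0.64 ± 0.15 (limma adjusted p = 0.617). The values of Axin2 ranged from -0.24 to 0.43. Among the nuclear factors (12 genes, median -0.067) Tcf7l2, the main TCF of the intestine, was at 0.037 ± 0.68 and the corepressor Tle4 at -0.79 ± 1.12. Picked for an unadjusted p below 0.05, the corepressor Tle3 was at 0.49 ± 0.079, the beta-catenin cofactor Pygo2 at 0.61 ± 0.32 and Tle1 at -0.39 ± 0.25.

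Further Wnt targets and crypt base genes (16 tested) had a median of -0.057, with 10 below 0, as were 54.4% of all genes. None passed the adjusted limma test. At an unadjusted limma p below 0.05, 1 (Gpx2) was lower, 6.25% of the list beside 7.9% of all genes. On array a the median of the list was -0.74, and on the other arrays it was 0.18 (b), -0.053 (e) and 0.12 (k). The glutathione peroxidase gene Gpx2 was at -0.58 ± 0.43 (SD, n = 4), below 0 on all 4 arrays and saturated in the P30 channel on 1 of them, and the nuclear receptor gene Nr2f6 at 0.21 ± 0.24. Of 15 other stem and progenitor genes tested, none passed the adjusted limma test. At an unadjusted limma p below 0.05, 1 (Alcam) was lower, 6.67% of that list beside 7.9% of all genes. Like Lgr5, 3 of the 15 were below 0 on all 4 arrays (20%, beside 7.98% of all genes). The median of the stem and progenitor list was -0.21. Without array a or without array b it was -0.11, and over all alternatives it ran from -0.38 to 0.094, so it is not settled. The list held the surface protein gene Cd24a at -0.61 ± 1.07, from -1.69 on a to 0.61 on b. Krt19 was saturated at P30 on all arrays and at P90 on 3, so no ratio is given. Olfm4 and Kit had no probe named through RefSeq.

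The proliferation genes of the crypt were read beside Lgr5 because stem cells there divide. None of 27 cell cycle genes tested passed the adjusted test. At an unadjusted limma p below 0.05, 16 were lower at P90 (59.3%, beside 5.31% of all genes). Means were below 0 for 26, beside 54.4% of all genes, and 16 kept that sign on each array, beside 7.98% of all genes. By array the median was -0.79 (a), -0.56 (b), -0.49 (e) and -0.16 (k), each nearer to 0 than the Lgr5 value on the same array. A list median and the value of 1 gene are unlike measures. The means of single genes in the list ran from -1.64 to 0.12, and some lay below the Lgr5 mean of -0.90. With array b turned their median went from -0.53 to -0.24, and 4 were lower and 1 higher at an unadjusted p below 0.05, 18.5% beside 23.9% of all genes. Survivin (Birc5) was at -0.82 ± 0.29 (SD, n = 4) and the helicase subunit gene Mcm6 at -0.56 ± 0.52.

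The 5 genes nearest to Lgr5 over the 4 arrays, by root mean square difference of the log2 P90/P30, were Exo1 (0.11), Mre11a (0.17), Stard4 (0.18), Eif2s1 (0.18) and G3bp1 (0.19). Exo1, an exonuclease of DNA repair, read -1.09 (a), -0.68 (b), -0.99 (e) and -0.64 (k). Mre11a encodes a nuclease of double-strand break repair, Stard4 a sterol carrier, Eif2s1 a subunit of a translation initiation factor and G3bp1 a stress granule protein. Their means lay between -0.85 and -0.78. With 4 arrays and 20825 genes, close neighbours are found for many patterns, and likeness here is a description of these arrays.

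Surface colonocyte genes mark the differentiated end of the crypt axis, and many were too bright for the scanner. Of 16 tested, 7 were saturated at P30 on all 4 arrays, among them Guca2a and Lypd8, the brightest, which were saturated at P90 as well. The median of the 10 genes that remained with saturated spots left out was -0.13, and with all 16 it was 0.034, so the list has no settled sign. None passed the adjusted limma test. At an unadjusted limma p below 0.05, 2 were higher and 1 lower at P90 (18.8%, beside 7.9% of all genes), all 3 free of saturation.

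RefSeq promoter windows on GRCm38.p6, from 250 bases before to 50 bases after a transcription start, were at hand for 6 of the 10 genes (Ascl2, Axin2, Rnf43, Ephb2, Lrig1 and Prom1) in 8 windows. The TCF/LEF core was searched on both strands, as CTTTGAT or CTTTGTT and as CTTTGAA or CTTTGTA. None of the 8 windows held one of these strings, which 16.9% of all 32851 windows of that length did. The GC content of the 8 windows ran from 44.3% for the second Rnf43 start to 73.0% for Lrig1. These letters say nothing on sites farther from the start.

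**Figure D4:**
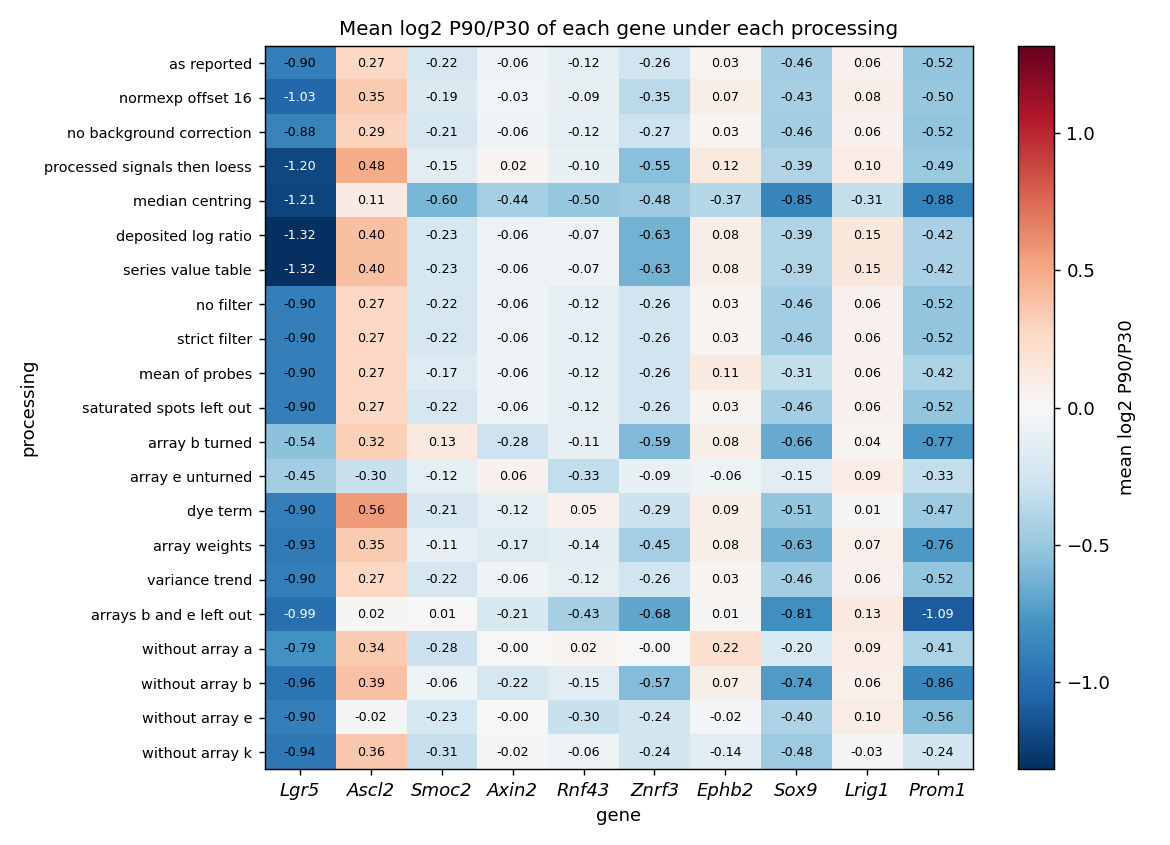
Each cell gives the mean log2 P90/P30 of a gene (columns) as reported and under the 20 alternative processings (rows), coloured by its value. The Lgr5 column is below 0 in every row, as are those of Znrf3, Sox9 and Prom1, while the other 6 genes change sign in at least 2 rows.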

How the data were processed

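Each of 4 arrays compared 1 P90 with 1 P30 RNA. Per the file headers, the deposited scanner files hold spot intensity as median spot and local background brightness per dye (Agilent Feature Extraction 10.5.1.1, while the submitters' processing notes name 8.5.1.1). They also hold the authors' processed signals and their log10 ratio of Cy5 over Cy3. The deposited value table holds log2 ratios: turned to P90 over P30, the log10 ratios matched it within 0.01 for 80.0% to 87.0% of probes per array. Its scale and direction were found in this way, and its centring is not stated; its column medians over all gene probes were 0.205 (a), -0.17 (b), 0.049 (e) and 0.17 (k). Marks for outliers, background and saturation came from the deposited files. Of 41174 probes, 25097 were named through RefSeq (GRCm38.p6).

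Intensities were corrected with normexp (offset 50) and loess (span 0.3) in limma 3.58.1 under R 4.3.3. Outlier spots were left out (127 to 156 per array), and spots of a probe averaged. A probe was kept if it was well above background on at least 3 arrays in the P90 or the P30 channel, and the brightest kept probe stood for its gene. Means of log2 P90/P30 were tested against 0 with lmFit and eBayes and adjusted over all genes; a fit over all 27055 kept probes was run as well and called none at an adjusted p below 0.05 (0%). The fit was tested on simulated independent genes with changes larger than those of the members, so that test does not measure power for the members. Whether an animal was used once is not stated, so p-values measure the spread between these pairs, which may be technical, and the 4 arrays limit precision. All members are named, with, from each list, genes past the test or else the 2 brightest, and the 5 genes nearest to Lgr5; other genes are marked as picked later. The members and lists were chosen with earlier results of these data known. No paired block applied, and 20 alternatives were run.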

Additional observations from a re-analysis of the deposited data

Results flagged for a closer look

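Of 54 sets of 4 array values examined, 4 had 1 array far from the other three, where chance gives about 1 in 20. Ascl2 was at 1.13 on array e against values within 0.1 of 0 on the others. Axin2 was at 0.43 on array b, with -0.24 to -0.20 on the others. The Wnt lipid transferase gene Porcn was at -0.54 on array b, and the endothelial gene Plvap at 1.54 on array b.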

How the results depend on the processing

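Of 200 member values recomputed over the 20 alternatives, 186 kept the direction reported, and no member passed the adjusted test in any of them. Genes past the test over all genes numbered 1 with the smaller normexp offset of 16, and 2 each for processed signals, the deposited log ratios and the value table. Probes past it numbered 1 with the smaller offset and 3 with each of the other three. The median of the members moved to -0.49 with median centring, where that of all genes moved to -0.21, and Ephb2 (-0.37) and Lrig1 (-0.31) reversed there; relative to all genes they were at -0.16 and -0.099. Other reversals were Axin2 at 0.021 with processed signals and 0.061 with array e unturned, Smoc2 at 0.13 with array b turned and 0.0089 without arrays b and e, Ascl2 at -0.30 and Ephb2 at -0.065 with array e unturned, and Rnf43 at 0.055 with a dye term. Leaving out 1 array at a time gave ranges of -0.018 to 0.39 for Ascl2, -0.30 to 0.025 for Rnf43, -0.14 to 0.22 for Ephb2 and -0.031 to 0.10 for Lrig1. The medians of the 17 other lists moved by more than the SD of their array medians in 30 of 340 cases, 18 lower and 12 higher; the most, 7, were of the other stem and progenitor genes. The cause of these shifts was not tested. The P90 spot of Lgr5 on array a was dim, which limits that ratio.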

Other observations

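Niche signals other than Wnt were also read, as Notch, BMP, hedgehog and EGF family genes (27 tested). Their median log2 P90/P30 was -0.0036, with 12 above 0 and 15 below, where 54.4% of all genes were below. None passed limma's adjusted test. At an unadjusted p below 0.05, 0 were higher and 0 lower, beside 7.9% of all genes. With array b turned the median was -0.21 and 6 were lower at an unadjusted limma p below 0.05 (22.2%, beside 23.9% of all genes). The BMP-responsive genes Id1 and Id3, the brightest of the list, were at -0.0053 ± 0.87 and 0.17 ± 0.51 (SD, n = 4). Both were above 0 on arrays a and e and below 0 on b and k.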
